A study of Mus musculus with 38 samples.

Results

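Of 10,819 promoters measured in the soleus muscle of mice, 136 had a mean in mice fasted at a high ambient temperature that was at most 1/1.5 of the mean of each of 5 other groups. They were chosen by their tag levels. A promoter here is a cluster of transcription start sites found by nAnT-iCAGE, a method that sequences the 5′ ends of capped RNA without amplifying it, and its level is given in TPM, the tags of the cluster divided by all tags of the library and brought to a common scale. A promoter also needed a mean of at least 1 TPM in each of those 5 groups, and the warm fasted mice are called HiT. The level in the HiT therefore fixed the set, and every difference between the HiT and another group is given as a description, with no test. The level requirement alone was met by 10,420 promoters.

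The mice were male C57BL/6J of about 8 weeks, with no genetic change, and each library came from 1 mouse. In experiment #1 the Pre mice (n = 4) had free food and were sampled on day 1, the Mid mice (n = 8) had no food on day 2 and were in fasting-induced torpor or between its bouts, and the Post mice (n = 4) were sampled on day 3 after the food was returned. Torpor was prevented in 3 further groups of day 2. The HiT mice (n = 4) were fasted at 32 °C, the Fed mice (n = 4) kept their food, and the Dep mice (n = 4) were fasted and touched gently whenever their oxygen consumption began to drop. The deposited design text gives the HiT mice food, and the condition label of the Fed mice reads starvation, whereas the methods of the study describe the groups as above, which is the description used here. Experiment #2 has 2 Pre, 5 Mid and 3 Post libraries, and it has no HiT, Fed or Dep mice. The HiT mice differ from the Mid mice both in ambient temperature and in the absence of torpor, and a comparison of the HiT with the Mid alone cannot tell these apart. The Dep mice were also fasted and kept from torpor, by touch in place of warmth.

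The soleus is a postural muscle built mainly of slow fibres, which burn fat and glucose in mitochondria, with a smaller share of fast fibres. In a fast, muscle takes up less glucose, makes less fatty acid and leans on fat and ketone bodies. In the cold, muscle adds heat by shivering and by futile calcium cycling, work that falls away in warm air. Each promoter is the place where transcription of a gene begins, so a gene with several promoters can lower one of them and keep another.

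Of the 136 members, 99 had an annotated 5′ end of the same strand no farther than 500 bp away, and they belonged to 97 genes, 90 of these members protein-coding. The other 37 had no such 5′ end. These lay in introns (14), outside transcripts (13), in coding exons (6), in the transcribed but non-coding ends of coding genes (3) and in an exon of a non-coding transcript (1). The annotated share was 72.8%, against 88.9% of all promoters. The median fold between the lowest other group mean and the HiT mean was 1.73. It was at least 2 for 31 members, at least 3 for 10 and at least 4 for 9. Its highest value was 22.2, for a cluster inside *Myh4* that had only 0 to 0.0979 TPM in the HiT libraries, so this fold rests on few tags.

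All 4 HiT libraries lay below all 24 other libraries of experiment #1 in 60 of the 136 members. Over the promoters that met the level requirement, the same was so for 0.883%, but the rule used these libraries, so nothing is read from the gap. In 20 members 1 other library reached into the HiT range, in 30 members 2 to 4 libraries did, and in 26 members 5 or more did, up to 12. Near the threshold, *Catspere2*, *Ift81* and an intergenic cluster at chr5:122093572 had ratios of the HiT mean to the lowest other mean of 0.664, 0.665 and 0.665. Just outside lay *Pfkfb3* with 0.667, a cluster at chr10:128502604 with 0.668 and *Mdh1*, the cytosolic malate dehydrogenase, with 0.669.

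The size of the set depends on the HiT libraries. The rule gave 246 promoters without HiT 1, 155 without HiT 2, 145 without HiT 3 and 104 without HiT 4, and 94 of those 104 were among the 136. HiT 4 had the lowest TMM factor of the 28 libraries, 0.679 in a range of 0.679 to 1.21, and it was the lowest of the HiT libraries in 98 of the 136 members and in 82.2% of all promoters at the same level. On TMM-scaled values the rule gave 95 promoters, 94 of them shared with the 136. *Hk2*, *Perm1*, *Usp2*, *Wfs1*, *Phka1*, *Plin1* and *Retn* left the set on that scale, with ratios of 0.720, 0.714, 0.748, 0.723, 0.667, 0.748 and 0.672. *Alpk3*, *Hlf*, *Gpd2* and, again, *Hk2*, *Perm1*, *Usp2*, *Wfs1* and *Phka1* left it without HiT 4. Among genes named after their values were seen, *Gys1* and *Gm5514* left it under both, with TMM ratios of 0.736 and 0.688. *Alas1*, *Fndc5* and *Amd-ps3* left it only without HiT 4. *Myh4*, *Scd1*, *Ppp1r3c*, *Ppargc1a*, *Pcx*, *Hr*, *Fasn*, *Thrsp* and *Tfrc* stayed in it under both.

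**Figure D1:**
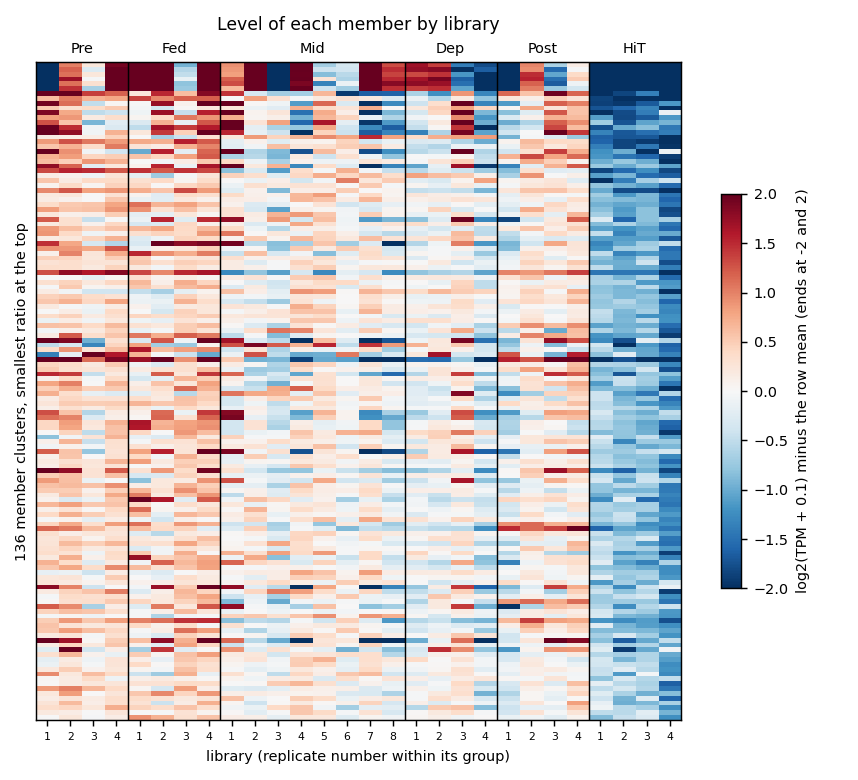
Heat map of the 136 members (rows, smallest ratio of the HiT mean to the lowest other mean at the top) in the 28 libraries of experiment #1 (columns by group). Colour gives log2(TPM + 0.1) minus the mean of the row, limited to -2 and 2. The 4 HiT columns are the low ones because the rule chose them so, and the topmost rows, those of *Myh4*, also vary widely among the libraries of every other group.

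The sequences around 6 of these promoters are shown because the results below turn on them, or because they hold a TATA box at its usual distance from the start. Each runs 5′ to 3′ over 150 bases from the RefSeq promoter table (GRCm38.p6, the build of the files). Capitals mark the base with the most tags, the letters TATAAA where they begin 20 to 35 bases before that base, and the letters CCAAT, or ATTGG for the other strand, before it. Letters were read on the strand of the gene. *Myh4* encodes the fast type IIB myosin heavy chain and *Alpk3* a heart and muscle kinase. *Ppp1r3c* encodes a subunit that brings protein phosphatase 1 to glycogen, and *Hk2* the hexokinase that traps glucose in muscle. *Pcx* encodes pyruvate carboxylase and *Thrsp* a small protein of fatty acid synthesis.
Myh4, chr11:67237712-67237861, plus strand: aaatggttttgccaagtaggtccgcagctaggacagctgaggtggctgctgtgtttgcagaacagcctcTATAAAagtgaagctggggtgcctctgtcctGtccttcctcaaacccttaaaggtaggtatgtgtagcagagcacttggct
Alpk3, chr7:81057500-81057649, plus strand: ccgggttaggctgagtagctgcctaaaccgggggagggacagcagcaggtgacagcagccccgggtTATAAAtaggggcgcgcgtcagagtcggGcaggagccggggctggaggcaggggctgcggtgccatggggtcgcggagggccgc
Ppp1r3c, chr19:36736555-36736704, minus strand: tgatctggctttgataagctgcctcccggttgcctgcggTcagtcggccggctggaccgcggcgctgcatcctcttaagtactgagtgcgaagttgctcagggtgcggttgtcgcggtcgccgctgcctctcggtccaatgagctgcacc
Hk2, chr6:82774405-82774554, minus strand: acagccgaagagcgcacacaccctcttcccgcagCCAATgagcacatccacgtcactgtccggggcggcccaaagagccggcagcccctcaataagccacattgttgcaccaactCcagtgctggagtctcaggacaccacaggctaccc
Pcx, chr19:4594219-4594368, plus strand: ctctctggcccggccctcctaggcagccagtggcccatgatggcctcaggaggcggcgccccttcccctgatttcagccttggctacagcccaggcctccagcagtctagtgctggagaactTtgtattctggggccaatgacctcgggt
Thrsp, chr7:97417501-97417650, minus strand: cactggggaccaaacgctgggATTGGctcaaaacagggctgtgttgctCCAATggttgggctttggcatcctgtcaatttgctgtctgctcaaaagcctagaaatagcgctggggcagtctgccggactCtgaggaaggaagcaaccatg
The *Myh4* start lay exactly at the RefSeq start, that of *Alpk3* 6 bases before it, and that of *Ppp1r3c* 61 bases before it. TATAAA lay at that distance in 4 of the 37 members with a sequence, *Myh4*, *Alpk3*, *H2-Q10* and *Nqo1*, and in 3.36% of the 4,940 promoters with one. Since only 37 of the 136 members had a RefSeq window that held their peak, fewer than 80%, a comparison of letters or GC content between the members and other promoters is void and is not drawn.

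*Myh4* held 6 of the 136 members, the 6 with the largest folds. Its clusters other than the one at the 5′ end had at most 0.267 TPM in any HiT library, so their folds rest on few tags. The 5′ end cluster had 69 to 195 tags in the HiT libraries. Its 5′ end cluster (chr11:67237658-67237995, plus strand), whose peak lies downstream of the TATA box shown above, had 6.18, 6.301, 2.19 and 2.41 TPM in the 4 HiT libraries, a mean of 4.27 ± 2.27 (SD). The Fed libraries had 1617, 424, 57.9 and 546 TPM, and the Pre libraries had 4.54, 210, 62.6 and 457. The Mid libraries ran from 5.32 to 925 TPM, the Post libraries had 6.67, 185, 22.3 and 90.6, and the Dep libraries had 203, 238, 20.6 and 8.36. So the HiT libraries were all low, but every other group except the Fed also held a library under 10 TPM, and Pre 1 and Mid 3 lay inside the HiT range. The SD was about as large as the mean in each other group, 184 ± 202 in the Pre, 309 ± 335 in the Mid, 76.3 ± 81.4 in the Post, 661 ± 670 in the Fed and 118 ± 120 in the Dep. None of the 6 clusters passed the test by edgeR in any of the 7 comparisons without the HiT, while 3 of these 42 values had an unadjusted p below 0.05 and DESeq2 called 1. From the Mid to Post in experiment #1, the log2 fold change of the 5′ end cluster was -2.07 ± 1.16 (SE, adjusted p = 0.171 by edgeR).

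The other clusters of *Myh4* lie along its body, 4 in coding exons and 1 in an intron, and 1 of them lay within 500 bp of another annotated 5′ end, and their levels followed the 5′ end. The 5′ end cluster had 5.31 to 17.8 times the sum of the other 5 in the 28 libraries of experiment #1, with a median ratio of 10.01. In experiment #2 this ratio was 0.05 to 0.39, with a median of 0.261, and the 5′ end cluster had 0.179 to 5.99 TPM. Its mean level was 51.2 times higher in experiment #1 than in experiment #2, whereas the ratio of the experiments had a median of 0.977 over the members. The experiments were run apart, with different sequencers, and the part of the sequencing in that gap was not tested. Beside the libraries of experiment #2, the HiT level of this cluster was not low, but its ratio to the other 5 differed between the experiments. The other 5 clusters summed to 0.392 to 0.507 TPM in the HiT libraries and to 3.58 to 24.5 TPM in experiment #2. Nothing is therefore read from the level of the 5′ end cluster across the experiments.

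**Figure D2:**
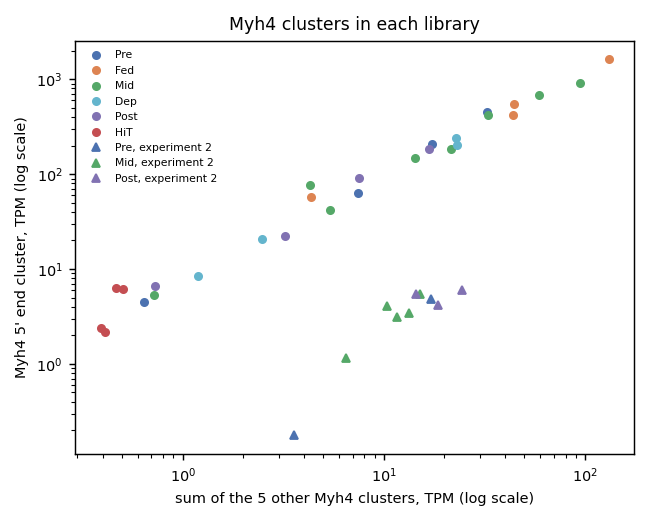
The 5′ end cluster of *Myh4* (vertical axis, TPM, log scale) against the sum of its other 5 clusters (horizontal axis, TPM, log scale) in each of the 38 libraries, coloured by group. The libraries of experiment #1 lie along a band in which the 5′ end has 5.31 to 17.8 times the sum, with the HiT at its low end, and those of experiment #2 lie far under it.

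Of the other fast-fibre genes, none was a member. *Actn3*, the actinin of fast fibres, had group means of 381 (Pre), 450 (Mid), 177 (Post), 177 (HiT), 942 (Fed) and 257 (Dep) TPM, and *Mybpc2*, the fast myosin-binding protein C, had 107, 122, 45.4, 51.1, 280 and 74.3 TPM in the same order. The HiT and Post levels thus lay together for both. *Myh2* and *Myh1*, the type IIA and IIX myosins, had HiT means 1.40 and 1.00 times their lowest other group mean. From the Mid to Post in experiment #1, 1 of the 25 clusters of the fast-fibre list rose, *Tnnc2*, and 1 fell, *Mybpc2*. Of all promoters tested, 17.5% rose and 17.5% fell. Of its 24 clusters at the required level, 2 were members (8.33%) and 13 had their lowest mean in the HiT. Over all promoters at that level, 1.3% were members and 3190 of 10,420 had their lowest mean in the HiT. In the slow-fibre list, 1 of 27 clusters was a member, an inner start of *Myl3*, the slow myosin light chain, and 21 had their lowest mean in the HiT. The summed level of soleus fibre markers was 8535 to 14263 TPM in the HiT libraries and 11050 to 18870 TPM in the others of experiment #1, so the ranges overlapped. In experiment #2 it was 50592 to 73108 TPM, and the part of the sequencing in that gap was not tested.

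*Scd1*, the desaturase that makes monounsaturated fatty acids, held 3 members. The HiT libraries had 50.2, 48.0, 57.4 and 82.8 TPM at its 5′ end, with a mean of 59.6 ± 15.9. The Pre libraries had 700, 398, 131 and 190 TPM, the Fed 183, 617, 194 and 752, the Post 83.9, 161, 423 and 368, and the Dep 138, 232, 930 and 73.6. The Mid libraries ran from 36.4 to 915 TPM with a median of 161, so the lowest of them lay under the HiT. The spread between mice of the same group was wide, and no comparison without the HiT passed the test by edgeR or by DESeq2 for any of the 3 clusters, where 0 of 21 values had an unadjusted p below 0.05. Between the Pre and Mid the log2 fold change was -0.43 ± 0.67 (SE, adjusted p = 0.673 by edgeR) in experiment #1 and -0.06 ± 0.63 (adjusted p = 0.965) in experiment #2.

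*Fasn*, fatty acid synthase, had 4.40, 5.40, 3.27 and 2.81 TPM in the HiT libraries. It had 120, 110, 40.0 and 68.1 TPM in the Pre, 60.2, 107, 34.9 and 150 in the Fed, and 54.3, 43.9, 175 and 105 in the Post. The Mid libraries ran from 3.08 to 26.5 TPM with a median of 8.79, and the Dep had 6.34, 6.22, 10.8 and 4.16. The 12 libraries of mice with food did not overlap the 16 of fasted mice, and within the fasted groups the HiT overlapped both the Mid and the Dep. *Fasn* fell from the Pre to Mid by 3.09 ± 0.43 (SE) on the log2 scale in experiment #1 (adjusted p = 7.65e-06 by edgeR) and by 2.66 ± 0.60 in experiment #2 (adjusted p = 0.0206). It rose from the Mid to Post by 3.31 ± 0.43 and 3.41 ± 0.56 (adjusted p = 1.88e-06 and 0.0022).

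*Thrsp* had 17.1, 13.4, 21.4 and 11.6 TPM in the HiT libraries, against 22.8 to 51.5 in the Mid, 23.6, 27.4, 36.0 and 17.3 in the Dep, and group means of 115 ± 53 (Pre), 83.5 ± 41 (Post) and 84.6 ± 50 (Fed). Only Dep 4 reached into the HiT range. It fell from the Pre to Mid in experiment #1 (-1.80 ± 0.29, adjusted p = 5.07e-05) and in experiment #2 (-1.58 ± 0.43, adjusted p = 0.0429). *Acaca*, the carboxylase that makes malonyl-CoA, was a member through 1 inner start of 2.21 TPM in the HiT, and that start fell from the Pre to Mid in experiment #1 (-0.70 ± 0.21, adjusted p = 0.012) and rose from the Mid to Post in experiment #2 (0.97 ± 0.16, adjusted p = 0.00203). The list for fatty acid and triglyceride synthesis had 24 clusters at the required level. Of these, 5 were members (20.8%) and 12 had their lowest mean in the HiT. Over all promoters at that level, 1.3% were members and 3190 of 10,420 had their lowest mean there. The median log2 ratio of the HiT to the mean of the other groups was -0.78, against -0.13 over all promoters at that level. Between the Pre and Mid of experiment #1, 14 of its 25 clusters fell and 4 rose, where 14.8% of all promoters fell and 15.4% rose. Those that fell include *Acly*, *Me1* and *Srebf1*, and those that rose were *Acacb*, *Dgat2*, *Gpam* and *Lpin1*. In experiment #2, 8 fell and 1, *Lpin1*, rose, where 4.44% of all promoters fell and 5.3% rose.

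*Pcx* feeds the citric acid cycle from pyruvate and is abundant in tissues that make fat or glucose. The member is the start shown above, and its levels were low throughout. The HiT libraries had 0.254, 0.500, 0.731 and 0.0979 TPM. The Mid libraries ran from 0.471 to 5.78 TPM, the Dep had 1.30, 0.824, 3.87 and 0.771, and the Pre had 9.36, 12.9, 5.50 and 4.77. It fell from the Pre to Mid in both experiments (-2.09 ± 0.51, adjusted p = 0.00284, and -1.67 ± 0.45, adjusted p = 0.0408) and rose from the Mid to Post in both (1.53 ± 0.52, adjusted p = 0.0229, and 1.60 ± 0.40, adjusted p = 0.021). In all, 6 members had fewer than 10 tags in some HiT library.

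Several members are genes of fat cells. *Plin1*, the coat protein of lipid droplets, had group means of 23.2 (Pre), 7.001 (Mid), 21.4 (Post), 4.58 (HiT), 25.1 (Fed) and 8.52 (Dep) TPM. *Retn*, resistin, had 10.04, 3.85, 7.57, 2.20, 8.35 and 6.21 TPM, and *Mrap*, a partner of the melanocortin receptors, had 7.23, 2.51, 6.45, 0.912, 6.68 and 3.60. Of the adipocyte markers, *Pparg* and *Ucp1* had no cluster, and of the 7 clusters measured 2 were members, *Plin1* and *Retn*. Both left the set on TMM-scaled values. All but 1 of the 7 had their lowest mean in the HiT, as did 3190 of the 10,420 promoters at the required level. The summed adipocyte level was 252 to 596 TPM in the HiT libraries, 314 to 1061 in the Pre, 163 to 1530 in the Mid, 207 to 934 in the Post, 269 to 1089 in the Fed and 241 to 1982 in the Dep. Mid 1 and Dep 3 had the highest sums, and they also had the highest levels of *Scd1* in their groups, 915 and 930 TPM. The HiT sums overlapped those of every other group. Their median, 502 TPM, lay above those of the Mid (438) and Dep (445) and below those of the Pre (701), Post (542) and Fed (653). In whole muscle, fewer cells of a type and less RNA per cell cannot be told apart, and the part of fat cells in the levels of *Scd1*, *Fasn*, *Thrsp*, *Pcx*, *Plin1*, *Retn* and *Mrap* was not tested.

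**Figure D3:**
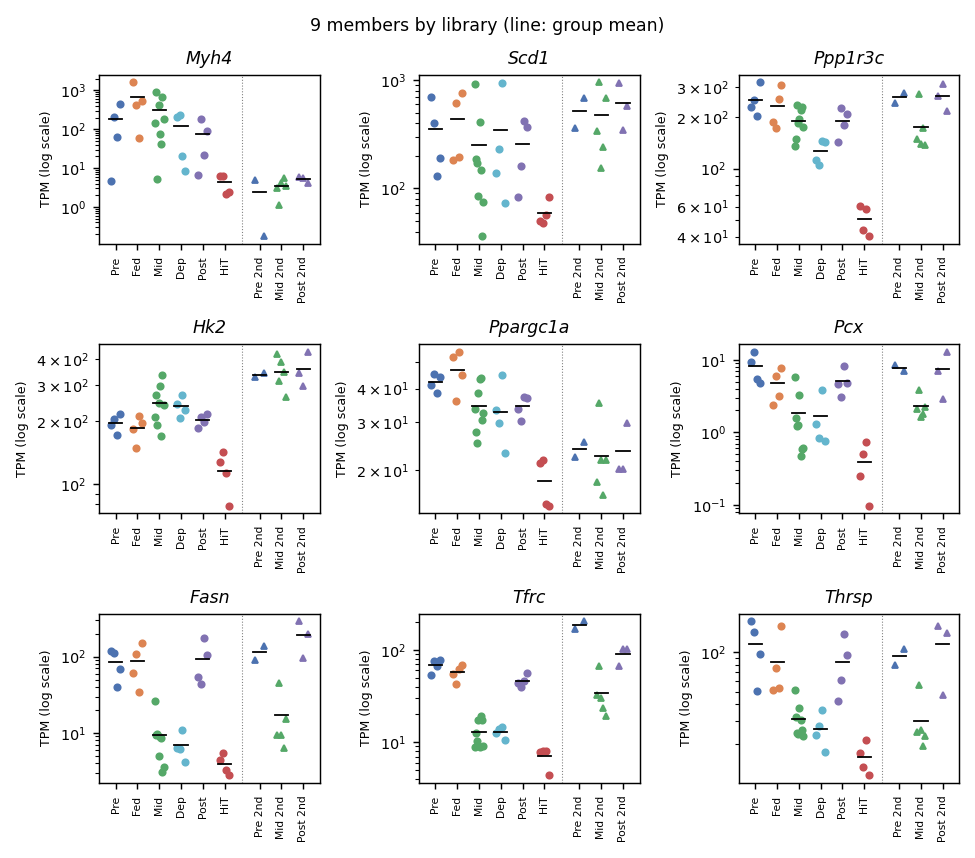
Levels of 9 members in every library (vertical axes, TPM, log scale), with circles for the 28 libraries of experiment #1, triangles for the 10 of experiment #2 (2nd) and a black line at each group mean. *Ppp1r3c*, *Hk2*, *Ppargc1a* and *Tfrc* have 4 HiT circles below all other circles, while those of *Myh4*, *Scd1* and *Fasn* lie among the lowest of other groups.

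*Ppp1r3c*, whose product acts on glycogen, had 60.5, 44.0, 58.4 and 40.3 TPM in the HiT. It had 231, 254, 203 and 321 TPM in the Pre, 189, 174, 256 and 309 in the Fed, 143, 228, 180 and 210 in the Post, 113, 105, 144 and 144 in the Dep, and 136 to 237 in the Mid, with a median of 190. The HiT libraries lay far below all others, and the fold to the lowest group, the Dep, was 2.49. It did not pass the test between the Pre and Mid (-0.30 ± 0.17, adjusted p = 0.179 in experiment #1 and -0.53 ± 0.24, adjusted p = 0.204 in experiment #2). Another cluster, in its coding exon, was a member too, with 3.83 ± 1.9 TPM in the HiT.

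*Hk2* had 128, 142, 113 and 78.9 TPM in the HiT, and the lowest of the other 24 libraries, Fed 2, had 149. The Dep and Mid were the highest groups, with means of 237 ± 24.9 and 245 ± 54.5 TPM, and *Hk2* rose to the Mid of experiment #1 both from the Pre (0.39 ± 0.11, adjusted p = 0.00801) and from the Fed (0.51 ± 0.11, adjusted p = 0.000827). In experiment #2 the change between the Pre and Mid was 0.10 ± 0.17 (adjusted p = 0.762). The call of experiment #1 was lost with library size alone as the scaling and with the Pre and Mid fitted alone. *Phka1*, a regulatory subunit of the kinase that starts glycogen breakdown, had group means of 119 (Pre), 119 (Mid), 99.5 (Post), 60.5 (HiT), 145 (Fed) and 97.9 (Dep) TPM, with no call in any comparison. A start in an intron of *Gys1*, muscle glycogen synthase, was also a member, with 18.5 ± 3.6 TPM in the HiT and group means from 29.6 to 37.0 elsewhere. It was named after its values were seen. Of the 27 clusters of the list for glucose uptake and glycolysis, 3 were members (11.1%) and 20 had their lowest mean in the HiT, with a median log2 ratio of -0.47. Of these members, *Hk2* and *Phka1* left the set on TMM-scaled values and without HiT 4, and *Ppp1r3c* stayed. Over all promoters at the required level, 1.3% were members and 3190 of 10,420 had their lowest mean there, with a median of -0.13. Between the Pre and Mid, 2 of 27 rose and 7 fell in experiment #1, where 15.4% of all promoters rose and 14.8% fell, and in experiment #2 the only call was a fall of *Pfkfb3*, where 5.3% rose and 4.44% fell.

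*Ppargc1a*, the coactivator PGC-1α that drives mitochondrial genes, had 2 separate promoters with different levels. The member is the start at chr5:51553874, with 21.3, 21.8, 15.01 and 14.8 TPM in the HiT libraries. There it had 41.2, 45.3, 38.5 and 44.0 TPM in the Pre, 33.5, 30.2, 37.2 and 36.8 in the Post, 52.1, 35.9, 54.7 and 44.8 in the Fed, 33.5, 29.9, 44.7 and 23.2 in the Dep, and 25.2 to 43.7 in the Mid. Dep 4 was the nearest to the HiT, and no library overlapped. Between the Pre and Mid its change was -0.20 ± 0.14 (adjusted p = 0.282) on the log2 scale, and in experiment #2 -0.01 ± 0.25 (adjusted p = 0.982). The libraries of experiment #2 had 16.2 to 35.3 TPM, partly inside the range of the HiT. The other start, at chr5:51567727, had means of 182 TPM in the Mid and 189 in the Dep, 30.1 in the HiT, and 7.10, 2.91 and 3.23 in the Pre, Post and Fed. So in the HiT the member start was at its lowest of all groups while the other start stood above the 3 groups with food. *Perm1*, a muscle regulator that acts with PGC-1, had 41.3 ± 10 TPM in the HiT and means from 63.1 to 79.0 elsewhere. Of the 14 clusters of the PGC-1 list, 2 were members (14.3%) and 7 had their lowest mean in the HiT. Of these members, *Perm1* left the set on TMM-scaled values and without HiT 4, and the *Ppargc1a* start stayed. Over all promoters at the required level, 1.3% were members and 3190 of 10,420 had their lowest mean there, with a median log2 ratio of -0.13. Of the 25 oxidative phosphorylation clusters none was a member, though 22 had their lowest mean in the HiT, with a median log2 ratio of -0.41.

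*Bdh1*, which oxidizes the ketone body 3-hydroxybutyrate, had 143, 140, 134 and 84.6 TPM in the HiT and a lowest other library of 220 TPM. *Got1*, the cytosolic aspartate aminotransferase, had a mean of 165 ± 38 TPM in the HiT and 291 to 356 in the other groups. *Coq10a*, a coenzyme Q binding protein, had 186 ± 56 TPM and 320 to 443. *Alpk3* had 241 ± 89 TPM and 363 to 478. *Pla2g12a*, a secreted phospholipase, had 160 ± 47 TPM and 314 to 432. Among the groups other than the HiT, *Bdh1*, *Got1* and *Pla2g12a* rose from the Fed to Mid (0.44 ± 0.11, 0.31 ± 0.11 and 0.53 ± 0.12, adjusted p = 0.00281, 0.0311 and 0.00144), and all 3 calls were lost with library size alone. The call of *Got1* held under 11 of 19 alternatives, and those of *Bdh1* and *Pla2g12a* under 18 of 19 each. *Bdh1* and *Got1* fell from the Mid to Post in experiment #1 (-0.28 ± 0.11 and -0.30 ± 0.11, adjusted p = 0.0483 and 0.0356), calls that held under 6 and 8 of 19 alternatives. *Bdh1* also fell in experiment #2 (-0.39 ± 0.09, adjusted p = 0.0106), and this call was lost with library size alone, with the lane as a term and without Post 5.

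*Tfrc*, the transferrin receptor that brings iron into cells, was low in fasted mice and lowest in the HiT. The HiT libraries had 7.83, 7.97, 7.95 and 4.40 TPM. The Dep had 12.6, 13.97, 14.5 and 10.5, and the Mid ran from 8.89 to 19.1 with a median of 11.4. The Pre had 53.6, 75.2, 66.7 and 78.6 TPM, the Fed 55.1, 42.7, 62.1 and 68.6, and the Post 43.6, 40.1, 45.7 and 56.6. The HiT libraries lay below all others, though the gap to the lowest Mid library was small beside the gap to the groups with food. *Tfrc* fell from the Pre to Mid by 2.30 ± 0.18 in experiment #1 (adjusted p = 7.94e-09) and by 2.39 ± 0.35 in experiment #2 (adjusted p = 0.0029), and it rose from the Mid to Post by 1.81 ± 0.18 (adjusted p = 3.23e-08) and 1.32 ± 0.32 (adjusted p = 0.0187). Red blood cell precursors also take up iron through this receptor, and the summed level of red blood cell markers was 1305 to 3178 TPM in the HiT libraries and 1661 to 12643 in the others of experiment #1. The part of blood in these levels was not tested. *Alas1*, the rate-limiting enzyme of heme synthesis, was named after its values were seen. It had 38.5 ± 5.1 TPM in the HiT and group means from 60.9 to 120 elsewhere, and it fell from the Pre to Mid in both experiments (-0.56 ± 0.08, adjusted p = 6.66e-06, and -0.73 ± 0.17, adjusted p = 0.0241).

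*Hr*, a corepressor of nuclear receptors, had 1.20, 0.967, 0.731 and 0.653 TPM in the HiT, and the lowest of the other 24 libraries had 2.66. The Fed had 11.9, 9.08, 10.7 and 10.6 TPM, the Pre 7.11, 9.40, 7.53 and 7.97, the Post 5.41, 4.99, 6.43 and 5.52, the Dep 4.22, 3.05, 5.22 and 2.66, and the Mid 3.74 to 8.24. It fell from the Fed to Mid (-0.86 ± 0.16, adjusted p = 0.000169) and from the Pre to Mid in both experiments (-0.48 ± 0.16, adjusted p = 0.0259, and -0.74 ± 0.21, adjusted p = 0.0471). *Akt2*, the insulin-signalling kinase, had 2.77 ± 0.71 TPM in the HiT and group means from 8.08 to 11.8, with no call. *Cdh13*, T-cadherin, which binds adiponectin, had 3.69 ± 1.3 TPM in the HiT and fell from the Pre to Mid in both experiments (-0.86 ± 0.17, adjusted p = 0.000344, and -1.19 ± 0.19, adjusted p = 0.00471). *Foxo6os*, an antisense transcript, did the same (-0.92 ± 0.15, adjusted p = 6.57e-05, and -1.12 ± 0.26, adjusted p = 0.0236), from 32.01 TPM in the Pre to 15.7 in the Mid, with 4.35 ± 0.57 in the HiT. Of 20 clusters of the insulin, IGF and mTOR list, 1, *Akt2*, was a member (5%), where 1.3% of all promoters at the required level were.

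*Usp2*, a deubiquitinating enzyme with a daily rhythm, was the only member that rose from the Pre to Mid in both experiments (0.68 ± 0.12, adjusted p = 7.91e-05, and 0.43 ± 0.11, adjusted p = 0.0314). It had 80.4, 86.1, 77.0 and 82.8 TPM in the Pre, 87.2 to 156 in the Mid, 73.0, 93.0, 72.4 and 96.8 in the Post, 81.0, 54.2, 78.5 and 81.1 in the Fed, and 85.1, 65.0, 88.4 and 75.3 in the Dep. The HiT had 67.2, 44.2, 42.5 and 37.0 TPM, and HiT 1 lay above the lowest Fed and Dep libraries. It was also the only member called from the Mid to Dep (-0.55 ± 0.12, adjusted p = 0.0163), a call that was lost without Dep 2, with library size alone and with only the groups compared. *Wfs1*, a protein of the endoplasmic reticulum membrane, rose from the Pre to Mid in experiment #1 (0.58 ± 0.11, adjusted p = 0.000235) and not past the threshold in experiment #2 (0.22 ± 0.12, adjusted p = 0.307), with 125 ± 23 TPM in the HiT and means from 197 to 279 elsewhere. *Hlf*, a clock-controlled transcription factor, had 2.21 ± 0.83 TPM in the HiT. It was the only member of the 19 clock clusters (5.26%), where 1.3% of all promoters at the required level were members. Without HiT 4, *Hlf* left the set.

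The 5 comparisons among the groups other than the HiT asked how the members moved with fasting, torpor and refeeding. The rule set each of these groups against the HiT but not against each other. The counts here are of members with an adjusted p below 0.05 by edgeR over all promoters. From the Pre to Mid in experiment #1, 8 of the 136 rose, where 15.4% of all promoters tested rose, and 35 fell, where 14.8% fell. Without Pre 2, 5 rose. The median log2 fold change was -0.18 over the members and 0.01 over all promoters. From the Fed to Mid, 16 rose (background 16.6%) and 34 fell (18.6%), with medians of -0.22 and 0.00. From the Mid to Post, 16 rose (17.5%) and 15 fell (also 17.5%), and the latter count was 9 without Post 1, Post 3 or Post 4. From the Mid to Dep none rose (1.16%) and 1 fell (0.872%), and none rose by DESeq2 either, while 1 member had an unadjusted p below 0.05 by edgeR and a higher level in the Dep. From the Pre to Fed, 2 rose (5.88%) and 6 fell (5.32%), and these 6 became 0 without Fed 2, 1 without Fed 1 or Pre 1, 3 without Pre 2, Pre 3 or Pre 4, and 10 without Fed 3. In the named calls from the Pre to Mid, *Fasn*, *Tfrc*, *Pcx*, *Thrsp*, *Cdh13*, *Foxo6os*, *Wfs1* and *Usp2* passed under every alternative, *Acaca* did not without Pre 2, and *Hr* did not without Pre 2, Pre 3 or Mid 8, or with only the Pre and Mid fitted. Among the named calls from the Mid to Post, *Fasn*, *Tfrc*, *Thrsp* and *Usp2* passed under every alternative, and *Pcx* did not with library size alone, with only the groups compared or without Post 3. Falls of *Hk2* and *Wfs1* from the Mid to Post held under 7 of 19 alternatives each. The rise of *Plin1* there held under 9 of 19, and its fall from the Pre to Mid under 10 of 19. The means of all these groups took part in the rule, so nothing is read from these counts beside their backgrounds.

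Experiment #2 used mice that the rule did not. From the Pre to Mid, 22 of the 136 members fell (16.2%), where 4.44% of all promoters fell, and 1, *Usp2*, rose, where 5.3% rose. The median log2 fold change was -0.23 over the members and 0.00 over all promoters. From the Mid to Post, 21 members rose (background 7.73%) and 9 fell (8.65%), with medians of 0.12 and -0.01. With 2 Pre mice these counts rest on single libraries. Without Pre 5 the falls numbered 6 and without Pre 6 they numbered 3. The falls numbered 15 with the sequencing lane as a term, where both Pre and 4 of the Mid libraries share a lane. All 3 Post libraries were on the other lane with 1 Mid library, and with the lane as a term 1 member rose from the Mid to Post and none fell. Of the named calls of experiment #2 from the Pre to Mid, that of *Tfrc* was kept with the lane as a term and without each library in turn, that of *Cdh13* was lost without Pre 6, those of *Fasn* and *Foxo6os* without Pre 5 or Pre 6, and that of *Foxo6os* also without Mid 12, and those of *Pcx*, *Thrsp*, *Hr* and *Usp2* were lost with the lane as a term and without each of Pre 5, Pre 6, Mid 9, Mid 11, Mid 12 and Mid 13 in turn. From the Mid to Post, the calls of *Fasn*, *Thrsp*, *Acaca*, *Tfrc*, *Pcx* and *Usp2* were all lost with the lane as a term, that of *Pcx* also without Post 7 or Mid 12, and that of *Tfrc* without Post 6 or Post 7. The 21 rises from the Mid to Post became 13 without Post 7, and the 9 falls became 1 without Post 5 and 3 without Post 7.

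Both experiments called 19 members as falling and 1 as rising from the Pre to Mid, and 12 as rising and 5 as falling from the Mid to Post, and none in opposite directions. The Pre, Mid and Post mice of experiment #1 took part in the rule, so the agreement is a description. The share of all promoters called in both experiments was not counted, so nothing is read from these counts. The difference between the experiments was tested in 1 fit of the Pre, Mid and Post libraries of both. It passed the threshold for none of 10,819 promoters in either comparison, where 605 and 704 promoters, 6 and 8 of them members, had an unadjusted p below 0.05 by edgeR. Of the 136 members, 68 were called in at least 1 comparison of experiment #1, where 58.2% of all promoters tested were, and 59 were called in none of the 7 comparisons of the experiments, where 40.3% of all promoters were. *Ppp1r3c*, *Ppargc1a*, *Phka1*, *Akt2*, *Scd1* and *Myh4* are among the latter.

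**Figure D4:**
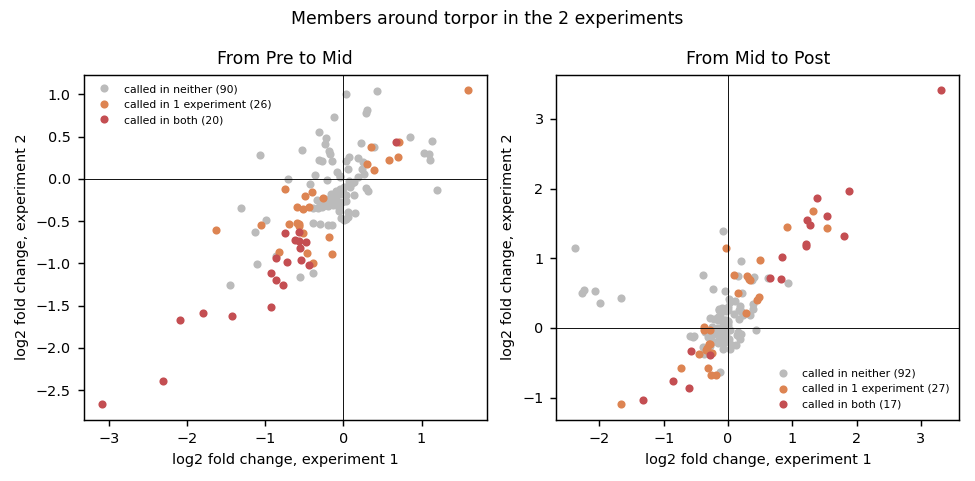
Log2 fold changes of the 136 members in experiment #1 (horizontal axis) and experiment #2 (vertical axis), on the left from the Pre to Mid, on the right from the Mid to Post, coloured by whether neither, 1 or both experiments passed the threshold. From the Pre to Mid 20 members passed in both and from the Mid to Post 17 did, all with the same sign in both. The share of all promoters that passed in both was not counted.

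Other members of both experiments were named after their values were seen. *Nfe2l1*, a transcription factor of proteasome genes, was a member through an internal start of 0.916 ± 0.17 TPM in the HiT and 7.396 ± 2.5 in the Post, and it rose from the Mid to Post in both experiments (1.88 ± 0.23, adjusted p = 5.37e-07, and 1.97 ± 0.29, adjusted p = 0.00122). *Ostn*, the secreted peptide musclin, had 5.77 ± 1.7 TPM in the HiT and 11.6 to 20.6 in the other groups, and it fell from the Pre to Mid in both (-0.75 ± 0.20, adjusted p = 0.00626, and -0.64 ± 0.15, adjusted p = 0.0241). *Fndc5*, the precursor of irisin, had 24.4 ± 9.1 TPM in the HiT and 38.1 to 65.1 elsewhere, with no call. *Amd2* and its pseudogene copies *Amd-ps3* and *Amd-ps4* had nearly the same levels in every group, 14.1, 14.7 and 14.3 TPM in the HiT, and since their sequences are near-identical the tags of one gene may have been counted at all of them.

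The members are one side of a larger difference. By the same rule applied to the other groups, 3 promoters were lowest in the Pre, 3 in the Mid, 40 in the Post, 65 in the Fed and 32 in the Dep, and 319 were highest in the HiT. The lowest of the other 5 means was that of the Dep in 59 members, the Post in 38, the Mid in 24, the Fed in 10 and the Pre in 5, and the highest was that of the Fed in 55 and the Pre in 45. The Mid and Dep means were both below those of the Pre, Post and Fed in 53 members (39.0%) and in 34.6% of promoters at the required level, shares near each other. Macrophage markers went the other way from the members. Their summed level was 156 to 460 TPM in the HiT libraries and 40.3 to 110 in the other libraries of experiment #1, and of the 8 clusters none had its lowest mean in the HiT. No lymphocyte marker had a cluster, and the neutrophil sum was at most 1.74 TPM in experiment #1 outside Dep 1, which had 117. The part of macrophages in the levels of the members was not tested.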

How the data were processed

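RNA of the soleus muscle was sequenced by nAnT-iCAGE in 38 libraries, 28 of experiment #1 and 10 of experiment #2. Reads were trimmed by the authors and mapped to mm10 (GRCm38) with bwa and hisat2 (versions not given in the sources used here) and the start sites were clustered with PromoterPipeline. The counts deposited by the authors are the tags of each of 10,819 clusters in each library. The authors also deposited TPM, in which each count is divided by all tags of its library and brought to a common scale. Tags in clusters numbered 18257657 to 39176649 per library (median 26580286.5) in experiment #1 and 9359994 to 20914855 (median 11281870) in experiment #2, and the depth limits clusters with few tags. No pair of libraries of a group was a duplicate (72 pairs, lowest chi-square per cluster 12.4).

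Groups were taken from the sample titles. Clusters were assigned to the nearest GENCODE 5′ end within 500 bp on the same strand. The members were found from group means of TPM. The members, the gene lists and the tests were chosen with earlier results of these data known. The tests used edgeR 4.0.16 in R 4.3.3 (TMM, quasi-likelihood F test, all libraries of an experiment in 1 fit with group as the only term) over 10,776 clusters of experiment #1 and 10,816 of experiment #2 with any tag. The p-values were adjusted by Benjamini-Hochberg across every cluster tested, separately for each comparison, and called below 0.05. The procedure was tested on simulated data. Alternatives were no TMM, upper-quartile scaling, DESeq2 1.42.0, the likelihood ratio test, filterByExpr, only the groups compared, a replicate block, the lane, other rules for the members and leaving out each library in turn.

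Genes named are members with an annotated gene that are among the 10 with the smallest ratio of the HiT mean to the lowest other mean, the 10 with the highest mean, the 5 in each direction with the largest called change from the Pre to Mid in experiment #2, those in a gene list, those with several member clusters, and the 3 clusters on each side of the ratio threshold. Others were named after their values were seen and are marked so. *Arxes2*, *Orm1* and *Trp53inp2* also met the criteria and are not described above.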

Additional observations from a re-analysis of the deposited data

Results flagged for a closer look

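Among 23 levels, those of 20 promoters and 3 marker sums, 161 pairs of a level and a group of 4 to 8 libraries were searched for a library far from the rest of its group, and 13 were found, where chance gives about 1 in 20. In experiment #1, *Scd1* had 914.6 TPM in Mid 1, where the next Mid library had 408, and *Fasn* had 26.46 TPM in the same library, where the next had 9.71. *Pcx* had 3.873 TPM in Dep 3 (next 1.296) and *Hr* 8.238 TPM in Mid 2 (next 5.716). *Usp2* had 54.17 TPM in Fed 2, below the next lowest of 78.49. HiT 4 was the low one for *Tfrc* (4.405 TPM, next 7.827), *Bdh1* (84.61, next 134.2) and *Phka1* (42.94, next 64.85). In experiment #2, Mid 10 was the high one of the Mid for *Ppp1r3c* (272.6 TPM, next 172.3), *Pcx* (3.807, next 2.255), *Fasn* (45.05, next 15.37), *Thrsp* (56.12, next 25.6) and *Tfrc* (67.65, next 32.31). Mid 1 and Dep 3 had the highest adipocyte marker sums of experiment #1, 1530 and 1982 TPM, and HiT 4 had the lowest TMM factor, 0.679. Their part in these values was not tested.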

How the results depend on the processing

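The rule gave 136 members, 31 with a ratio of 1/2 in place of 1/1.5, 541 with a ratio of 0.8, 95 on TMM-scaled values, and 104 to 246 without 1 library. Without 1 library, the counts of members that rose and fell ranged from 5 to 10 and 27 to 38 from the Pre to Mid in experiment #1, 14 to 22 and 9 to 17 from the Mid to Post, 11 to 18 and 30 to 39 from the Fed to Mid, 0 to 0 and 0 to 2 from the Mid to Dep, 0 to 3 and 0 to 10 from the Pre to Fed, and in experiment #2 0 to 2 and 3 to 31 from the Pre to Mid and 13 to 25 and 1 to 8 from the Mid to Post. Where a group of 2 loses 1, the lone library is assumed to vary like the other groups. With library size alone in place of TMM, the rises were 4 (Pre to Mid), 5 (Fed to Mid) and 0 (Pre to Fed), the falls 6 (Mid to Post), 0 (Mid to Dep) and 0 (Pre to Fed) in experiment #1, and in experiment #2 0 rose from the Pre to Mid and 3 fell from the Mid to Post. The falls from the Mid to Post numbered 7 with upper-quartile scaling. With only the groups compared, 8 fell from the Mid to Post, 0 from the Mid to Dep, 1 rose from the Pre to Fed and 2 from the Pre to Mid in experiment #2, where DESeq2 and the likelihood ratio test also gave 2. With the lane as a term, 0 rose from the Pre to Mid, 1 rose and 0 fell from the Mid to Post. The causes were not tested.

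The replicate numbers of experiment #1 were not taken as pairs of mice. Correlations ran from -0.41 to 0.50 over 60 pairs with the same number, with a median of -0.008. They ran from -0.54 to 0.70 over 260 pairs with different numbers, with a median of 0.009. The best match bore the same number in 10 of 24 libraries, and the number expected without pairing was not computed. With a replicate block, 4 rose from the Pre to Mid, 9 fell from the Mid to Post, 9 rose from the Fed to Mid and 1 rose from the Pre to Fed, and the other counts stayed within 1.5 times. The calls of *Hk2* and *Hr* from the Pre to Mid and of *Pcx* from the Mid to Post, all of experiment #1, were among those lost with this block. The Pre and Mid of experiment #2 share no number. Of 65 called fold changes of named members, 24 passed the threshold under every alternative. In 1139 values under alternatives, 223 missed it with the same sign and 0 changed sign. Over all promoters, the share of rises among the calls moved from 51.0% to 36.6% and 35.7% (Pre to Mid, library size alone and upper-quartile scaling) and from 47.1% to 23.3% and 36.7% (Fed to Mid), where library size alone moved the median of the log2 fold changes over all promoters to -0.12. It moved from 49.9% to 63.3% with upper-quartile scaling (Mid to Post), from 47.2% to 62.2% and 58.3% in experiment #2, and there to 30.5% with the lane as a term. Clusters near 1 TPM in the HiT rest on few tags.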

Other observations

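Gene groups without a member differed in how their HiT level stood. Of the 25 clusters for fatty acid oxidation and PPAR targets, 9 had their lowest mean in the HiT, with a median log2 ratio of the HiT to the mean of the other groups of -0.20. Of 15 clusters for vascular growth, 6 did (-0.43), of 27 for heat shock proteins and chaperones, 6 did (0.00), and of 17 for FOXO and muscle protein breakdown, 3 did (-0.16). Collagens and matrix genes stood higher in the HiT, with a median of 0.76 and 1 of 23 clusters lowest there, and immediate early genes with a median of 0.32 and none of 15. Over all promoters at the required level, 3190 of 10,420 were lowest in the HiT, with a median of -0.13. No member came from the lists for cholesterol synthesis (11 clusters), ATF4 targets (12), myogenic factors (22), cell division (4) or cold-inducible RNA-binding proteins (3), and 1 of 26, *Gpd2*, from thermogenesis. These are descriptions, with no test.

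*Gm5514*, a processed pseudogene and a member, had a mean of 179 TPM in experiment #1 and 1.33 TPM in experiment #2, a fold of 134, where the 5th and 95th percentiles of the ratio of experiment #2 to experiment #1 were 0.465 and 2.72 over all promoters. It was named after its values were seen, and the cause was not tested.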
